A study of Mus musculus with 6 samples.

Results

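The genes described here encode the replication-dependent histones, the H1, H2A, H2B, H3 and H4 proteins that are made in S phase to package newly copied DNA. Members were the protein-coding genes of mouse RefSeq (mm10) with symbols that start with H2ac, H2bc, H3c or H4c, together with the 6 linker histone genes H1f1 to H1f6, and genes that carry an older Hist1h to Hist4h name. There were 67 such genes among 20665 autosomal protein-coding genes, 57 matched by symbol and 10 by older name. They comprised 6 H1, 18 H2A, 18 H2B, 12 H3 and 13 H4 genes, and 3 histone pseudogenes were left out. The rule used gene names alone and no measured value, although the family was chosen with earlier results of these data known.

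Replication timing was read from the whole-genome sequencing depth of growing mouse myeloid cell lines that were made immortal with HoxB8 under GM-CSF selection. The series held 3 WT samples and 3 Recql4-/- Klhdc3-/- samples. The latter lacked Recql4, a RecQ helicase that acts when replication starts, and Klhdc3, a substrate receptor of CUL2 ubiquitin ligases. Cells of both genotypes carried HoxB8 and were grown in the same medium, and the labels do not say whether samples of a genotype were separate lines or clones. The comparison intended was of the double mutant with WT, but no name tied a column of values to a sample. The 6 columns were therefore treated as unassigned profiles, A to F, and genotypes were not compared. DNA depth carries no measure of expression, so the labelled cell type was not checked.

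In mammals most of these genes lie side by side in a few clusters, the largest of which lies on chromosome 13 in the mouse. They have no introns as a rule, and their mRNAs end in a stem-loop in place of a poly(A) tail. NPAT, a substrate of cyclin E and CDK2, collects at the clusters in histone locus bodies and raises their transcription as cells enter S phase. Early replicating DNA is copied first in S phase, and in a growing culture it has on average more copies per cell than late DNA. Each value below is either a timing score, a smoothed value in SD units where a higher score stands for earlier replication, or a raw level, the normalised copy number of a window of about 10 kb before smoothing.

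The 67 genes formed 5 loci, where neighbours less than 200 kb apart were joined. Chromosome 13 held 54 genes in a pair of runs: a proximal run of 23 genes (21715711 to 22043658, 328 kb) and a distal run of 31 genes (23531044 to 23934913, 404 kb), 1487 kb apart. Chromosome 3 held 10 genes within 50.3 kb (96219885 to 96270192). Chromosome 11 held H2bu2 and H2aw, and chromosome 6 held the lone H4 gene H4f16 (136803993 to 136804431). A gene took the score of the window nearest to its midpoint that was valued in each profile. The 67 genes took 29 distinct windows, so the genes of a locus share windows and smoothing and are not independent measurements.

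Many H2A and H2B genes lie head to head and share the DNA between their starts, which is where their promoters lie. There were 12 such pairs with starts at most 300 bp apart, 11 on chromosome 13 and 1 on chromosome 3, and in 10 of them both genes took the same window. The 4 stretches below hold the DNA between the starts of the earliest pair (H2ac20 and H2bc21), of the first pair of the proximal run (H2bc13 and H2ac13) and of the 2 latest pairs (H2ac12 with H2bc12, and H2ac11 with H2bc11). They are shown because these loci span the range of timing of the family. Each is the plus strand, 5′ to 3′, of GRCm38.p6, the mm10 assembly, from the RefSeq promoter table. Capitals mark the CCAAT box (CCAAT, or ATTGG on the other strand), the octamer bound by POU2F1 (ATTTGCAT on either strand) and the TATA box (TATAAA, or TTTATA).
H2ac20 and H2bc21, chr3:96220881-96221071: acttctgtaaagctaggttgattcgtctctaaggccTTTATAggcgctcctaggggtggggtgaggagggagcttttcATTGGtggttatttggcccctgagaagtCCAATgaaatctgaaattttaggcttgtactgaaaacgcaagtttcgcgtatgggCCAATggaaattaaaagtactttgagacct
H2bc13 and H2ac13, chr13:21716184-21716411: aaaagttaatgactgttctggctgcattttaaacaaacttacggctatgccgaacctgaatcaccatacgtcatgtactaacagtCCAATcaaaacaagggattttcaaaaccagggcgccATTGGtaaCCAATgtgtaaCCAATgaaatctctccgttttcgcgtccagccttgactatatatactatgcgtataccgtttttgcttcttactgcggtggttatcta
H2ac12 and H2bc12, chr13:22035644-22035820: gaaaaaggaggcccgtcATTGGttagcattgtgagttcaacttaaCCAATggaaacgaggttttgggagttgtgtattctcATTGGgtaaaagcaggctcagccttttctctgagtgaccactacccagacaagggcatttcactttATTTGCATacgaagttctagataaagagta
H2ac11 and H2bc11, chr13:22042950-22043197: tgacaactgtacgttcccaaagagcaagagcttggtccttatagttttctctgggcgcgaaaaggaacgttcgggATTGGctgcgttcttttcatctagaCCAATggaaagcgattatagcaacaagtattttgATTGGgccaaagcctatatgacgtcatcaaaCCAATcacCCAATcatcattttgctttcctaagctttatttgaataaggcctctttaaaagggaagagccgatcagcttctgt
The pair of H2ac20 and H2bc21 held 3 CCAAT boxes and 1 TATA box in 191 bp. H2bc13 and H2ac13 were separated by 228 bp with 4 CCAAT boxes, and H2ac11 and H2bc11 by 248 bp with 5. The 177 bp between H2ac12 and H2bc12 held 3 CCAAT boxes and 1 octamer. Early and late pairs thus all carried CCAAT boxes.

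The CCAAT box was common in the promoters of the H1, H2A, H2B and H3 genes. In those of the H4 genes it was no more frequent than in all promoters. A promoter was searched on both strands over the 250 bp before the start, and 62 of the 67 genes had one. Each member was counted once, as a match if any of its promoters matched, whereas the shares of all promoters count each promoter singly. The units therefore differ, and a gene with several promoters has more chances to match. The CCAAT box occurred in 51 of the 62 (82.3%), against 33.9% of 32851 promoters of the table. It was found in each of the 34 H2A and H2B promoters and the 6 H1 promoters, in 8 of 10 H3 promoters and in 3 of 12 H4 promoters. The octamer occurred in 7 of 18 H2A and 7 of 16 H2B promoters, in none of the H1, H3 or H4 promoters, and in 1.6% of all promoters. By locus, the CCAAT box stood in 6 of 8 promoters on chromosome 3, the earliest locus by score. On chromosome 13 it stood in 18 of 23 of the proximal and 25 of 28 of the distal run. The TATA box occurred in 29 of the 62 (46.8%), against 12.4% of all promoters. Genes of a head-to-head pair share much of this DNA, so these counts are not of independent promoters, and a match to letters is not evidence of binding.

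The histone genes lay in DNA of intermediate to early timing, and most of them were not among the earliest genes. In each of the 6 profiles, 67 of 67 members scored above 0, as did 76.2% of the 18355 autosomal protein-coding genes with a score. Only 10 scored above 1 in each profile, against 27.6% of all genes, and these were the 10 genes of chromosome 3. On raw levels scaled to SD units and averaged within 50 kb, no member exceeded 1 in each profile (0 of 67), and the median of the chromosome 3 genes was 0.80 in place of 1.34. That scaling used the SD of single windows before smoothing. The share of all genes above 1 on it was not counted, so the 0 of 67 has no share beside it. By score, 56 members lay between 0 and 1 in each profile, 54 of them on chromosome 13, against 29.9% of all genes.

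The median member scored 0.72, 0.78, 0.75, 0.71, 0.47 and 0.75 in profiles A to F. The median of all genes was 0.87, 0.85, 0.82, 0.78, 0.81 and 0.70. The histone median was therefore the lower one in A to E and the higher one in F. No test was made, since genes are not replicates and neighbours share windows. On the raw level, 53 of the 67 members exceeded the autosomal median in each profile when windows within 50 kb were averaged, against 72.2% of genes.

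**Figure D1:**
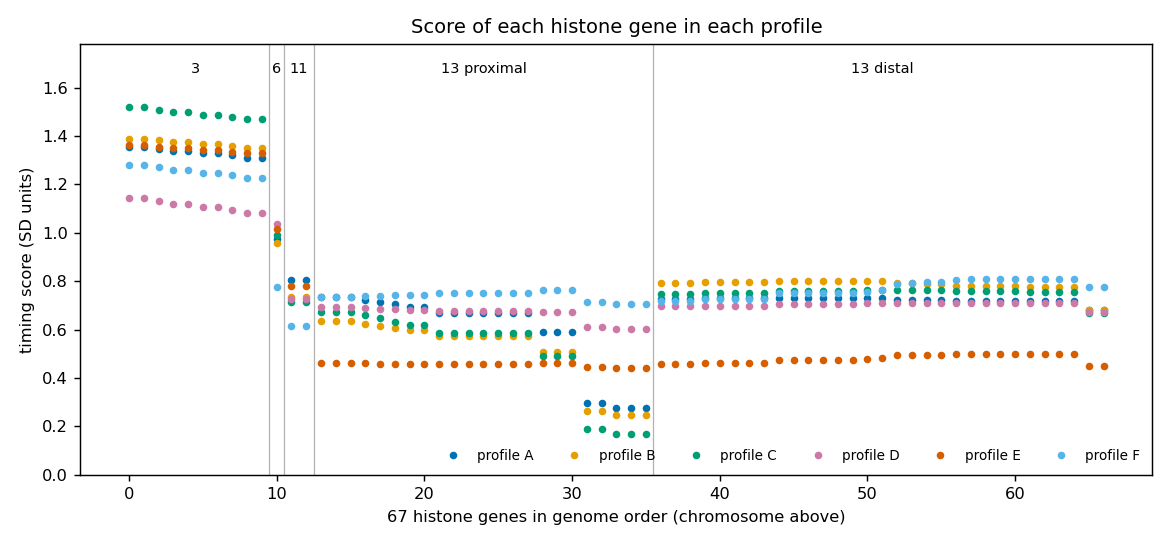
Timing score (SD units, vertical axis) of each of the 67 histone genes, in genome order along the horizontal axis, with 1 point per profile and grey lines between the loci. The 10 genes of chromosome 3 sit above 1 in each profile, and the last 5 genes of the proximal run of chromosome 13 spread the most, from 0.17 to 0.71.

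The loci kept a partial order. Over its members, the chromosome 3 locus had median scores of 1.33, 1.37, 1.49, 1.11, 1.35 and 1.25 in profiles A to F. It was the earliest locus in each profile, at the 71.9th to 89.5th percentile of all genes. H4f16 on chromosome 6 came next, with 0.97, 0.96, 0.99, 1.04, 1.02 and 0.78. In F its lead over the distal run of chromosome 13 was small, 0.78 against 0.76.

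The distal run of chromosome 13 had medians of 0.73, 0.79, 0.76, 0.71, 0.47 and 0.76. The proximal run had 0.67, 0.58, 0.59, 0.68, 0.46 and 0.74, below the distal run in each profile, although by 0.02 or less in E and F. The chromosome 11 pair scored 0.81, 0.73, 0.71, 0.73, 0.78 and 0.61. It was earlier than both runs in A, D and E, between them in B and C, and later than both in F, so its place among them was not stable over the profiles.

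On chromosome 3 the genes differed little from one another. The earliest members of the family were H2ac21 and H2ac20, both H2A genes, each at 1.35, 1.39, 1.52, 1.14, 1.36 and 1.28 in profiles A to F. H2bc21, the H2B partner of H2ac20, followed at a median of 1.35, and the latest of the locus was H3c13, an H3 gene, at 1.31, 1.35, 1.47, 1.08, 1.33 and 1.23. From the first to the last gene the score fell by 0.03 to 0.06 within a profile. Even the largest step between neighbours, from H2ac19 (median 1.34) to H2ac18 (1.33), was small.

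Across profiles the spread was wider than along the locus. Each of the 10 genes was highest in C and lowest in D, with ranges of 0.38 to 0.39. Raw levels over the locus were 2.17, 2.19, 2.17, 2.07, 2.13 and 2.14, and D was again the lowest. The raw median of the whole of chromosome 3 was also low in D (1.89) and E (1.86), against 1.92 to 1.94 in the other profiles, and the part of this in the locus values was not tested.

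Among the 3 widths taken, chromosome 3 led in the raw level only at the widest. Over the windows of the genes alone, its raw level (median 2.16, range 2.07 to 2.19) was no higher than that of H4f16 (median 2.18) or of the chromosome 11 pair (median 2.25), each of which rests on a single window. With 50 kb added on each side, H4f16 (2.15) lay above the chromosome 3 locus (2.11) in each profile, and the chromosome 11 pair stood at 2.12. With 500 kb added on each side, the median raw level was 2.17 around the chromosome 3 locus, 2.08 around H4f16 and 2.06 around the chromosome 11 pair. At that width chromosome 3 was the highest of the 3 in each profile. The nearest peak of the score lay before the genes in each profile, at a median distance of 1300 kb (344 to 1300 kb), so the genes lay where the score falls from an early domain. In A, B, C and E that peak is the first valued window after a gap in the values, so its position is uncertain.

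**Figure D2:**
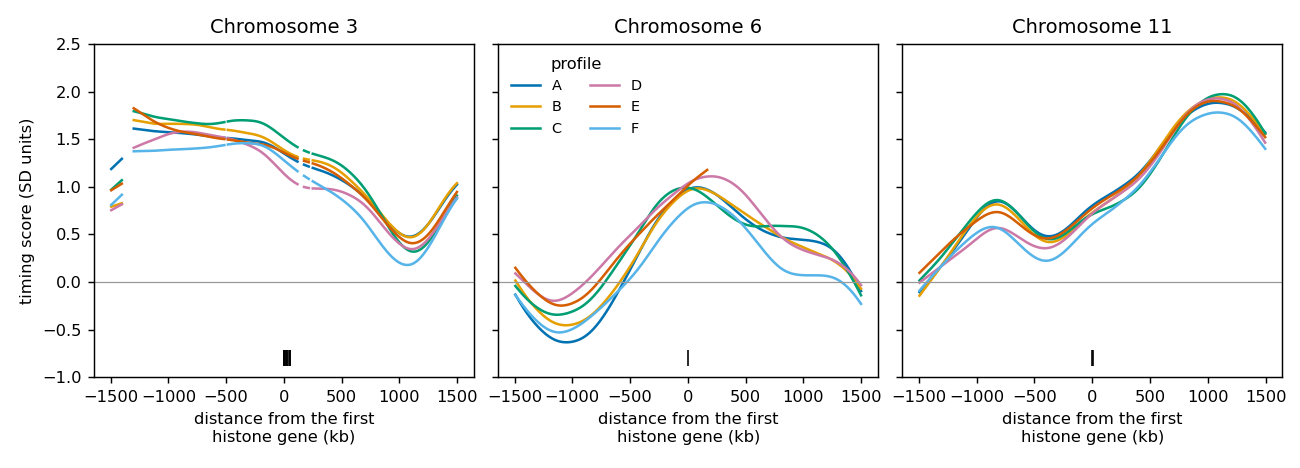
Timing score (SD units, vertical axis) on both sides of the histone genes of chromosomes 3, 6 and 11, as 1 line per profile against the distance in kb from the first histone gene, with a black mark at each gene. The chromosome 3 genes lie on a falling slope, H4f16 close to a low peak, and the chromosome 11 pair on a rising slope.

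H4f16 lay close to a local peak. In 5 profiles the nearest peak was 16.9 to 167 kb away, at scores of 0.84 to 1.11. In E the nearest peak was 1549 kb away at a score of 3.29, and 1138 windows of chromosome 6 carried no value in E, against 64 to 69 in the others. H4f16 itself scored 1.02 in E, inside the range of the other profiles. H2aj, a gene for a replication-independent H2A variant, shared its window.

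The chromosome 11 pair had the narrowest spread of the family. H2bu2, an H2B gene (58948911 to 58949372), and H2aw, an H2A gene (58954685 to 58955192), took the same window and scored 0.61 in F to 0.81 in A, a range of 0.19. They lay on a slope rather than at a peak. In 5 profiles the nearest peak stood 812 to 862 kb before them at 0.58 to 0.86, and in D it stood 1067 kb after them at 1.93.

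On chromosome 13 the distal run was flat. Its 31 genes include H1f1 to H1f4 and H1f6 of the linker histones, 7 H3 and 6 H4 genes. By the median over the profiles, the earliest was H1f4, which encodes linker histone H1.4, at 0.73, 0.80, 0.76, 0.71, 0.48 and 0.76 from A to F. The latest by this median were H2bc1 and H2ac1 at the far end of the run, each at 0.68, 0.68, 0.67, 0.67, 0.45 and 0.78. In F they were not the latest, and scored above H1f4.

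Within a profile the members of the distal run spread over 0.04 to 0.12. The step from H1f1, the gene of H1.1 (median 0.74), to H2bc1 (0.68) was the largest between neighbours. H2bc1 and H2ac1 encode the testis histones TH2B and TH2A. H1f6, the gene of the testis linker histone H1t, lies among the somatic genes of the run and scored 0.74, like its neighbours. The 6 other protein-coding genes in the span, Hfe, Trim38 and 4 Slc17a transporter genes, scored 0.69 to 0.74.

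The proximal run declined along its length in part of the profiles. At its start H2bc13, an H2B gene, scored 0.73, 0.63, 0.67, 0.69, 0.46 and 0.74 in profiles A to F. Its first 18 genes lay within 122 kb, and the last of them, H4bc24, an H2B gene by its older name Hist1h2br, scored 0.59, 0.51, 0.49, 0.67, 0.46 and 0.76. After 198 kb with the genes Zfp184, Pom121l2 and Prss16 followed the last 5 members, H2ac12, H2bc12, H4c9, H2ac11 and H2bc11.

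These 5 genes were the latest of the family by the median over the profiles, although in F the chromosome 11 pair, at 0.61, was later. H2ac12, an H2A gene, stood at 0.30, 0.26, 0.19, 0.61, 0.44 and 0.71. H4c9, H2ac11 and H2bc11 each scored 0.28, 0.25, 0.17, 0.60, 0.44 and 0.71, with a median of 0.36. The 3 genes were thus lowest in C, low in A and B, and highest in F, and their place among all genes ran from the 23.8th to the 50.5th percentile.

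From the first to the last gene of the run the score fell by 0.46, 0.39 and 0.50 in A, B and C, and by 0.09, 0.02 and 0.03 in D, E and F. These 5 genes were also the only members whose score ranged over at least 0.5 among the profiles, 5 of 67 against 8.48% of all genes. In the same 5 each of A, B and C lay below each of D, E and F, as in 7.37% of all genes. Both counts were near the shares of all genes, and the 5 genes took only 2 neighbouring windows. The range of the 5 genes was 0.53 to 0.54. The widest range of any other member was 0.39, and 65 of 67 members ranged over at least 0.25, against 59% of all genes. Leaving out profile C or F took the 5 genes below the limit of 0.5.

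**Figure D3:**
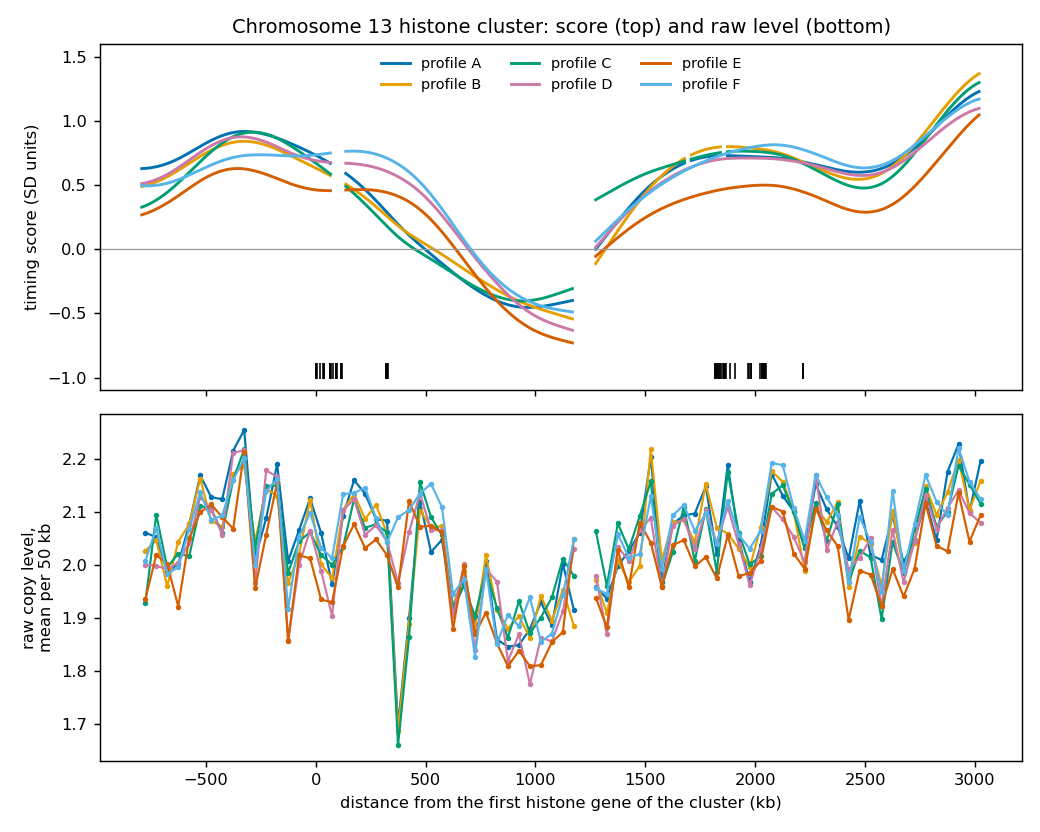
Timing score (top, SD units) and raw copy level (bottom, mean per 50 kb) across the histone cluster of chromosome 13, 1 line per profile, against the distance in kb from its first histone gene; black marks show the 54 genes and breaks show windows without a value. Scores fall to -0.73 to -0.40 at their lowest between the runs, and the raw level of A, B and C dips just after the last genes of the proximal run.

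The order of the profiles in the raw level at the last 5 genes depended on the width taken. Over the 2 windows that hold the genes the raw level was 2.12, 2.04, 2.10, 2.09, 2.03 and 1.97 in profiles A to F, highest in A and lowest in F, unlike the score. The SD between these 2 windows was 0.01 to 0.15 within a profile, against a range of 0.15 over the profiles. This order is therefore uncertain. Over the 11 windows within 50 kb, which include the first of the 4 windows described next, the raw level was 2.01, 2.02, 1.99, 2.04, 2.03 and 2.07, with A, B and C each below D, E and F. A stretch of 4 windows from 22083289 to 22136169, which begins 39.6 kb after H2bc11 and holds the vomeronasal receptor genes Vmn1r188 and Vmn1r189, had levels of 1.57, 1.56, 1.56, 1.98, 1.94 and 2.09. There A, B and C lay far below D, E and F. This stretch was picked after its values were seen, as the longest unbroken series of windows within 200 kb after the genes whose raw level ranged over at least 0.25.

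Within 200 kb of the 5 genes the mean raw level was 2.04, 2.02, 2.01, 2.07, 2.05 and 2.11, which ranks the profiles as the scores of these genes do. With the 4 windows left out it was 2.09, 2.08, 2.07, 2.09, 2.06 and 2.12, and the levels of A, B and C then overlapped those of D, E and F. On raw levels scaled to SD units, the range over the profiles fell from 0.53 with the 4 windows to 0.22 without them. Counted in this way, 5 members ranged over at least 0.5 with the windows and 0 without them. The 4 windows were picked for their wide range, so that choice largely set these falls in advance. On scaled raw levels within 50 kb, the width planned beforehand, 4 members ranged over at least 0.5. The last 5 genes were not among them, and the mean level within 50 kb of these genes ranged over 0.40. For none of these counts on scaled raw levels was the share of all genes taken, so they cannot be called high or low. Whether the smoothed scores of the 5 genes take their spread from the 4 windows was not tested. The labels do not state how the smoothing was done.

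**Figure D4:**
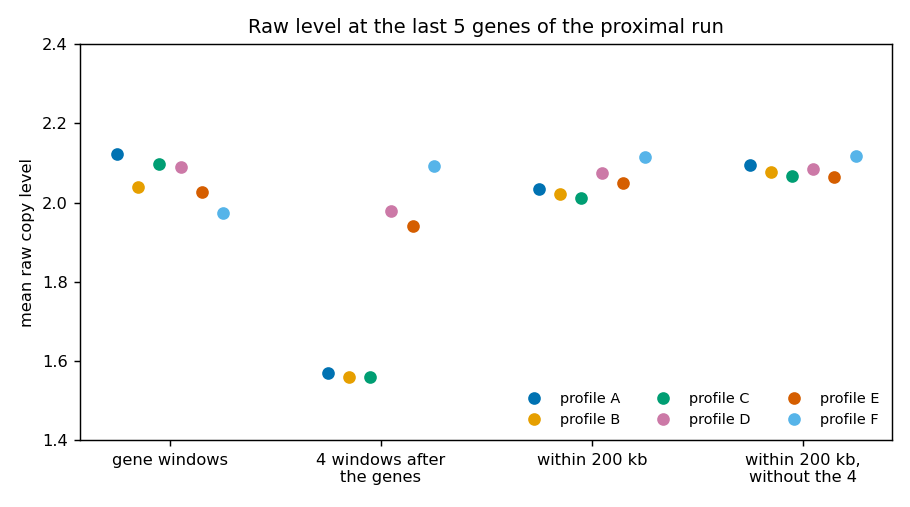
Mean raw copy level (vertical axis, no unit, starting at 1.4) in each of the 6 profiles over the 2 windows of the last 5 genes of the proximal run, the 4 windows after them, and all windows within 200 kb with and without those 4. Profiles A, B and C stand at 1.56 to 1.57 in the 4 windows, against 1.94 to 2.09 in D, E and F, and do not stand apart over the genes themselves.

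Most chromosome 13 members were lowest in profile E. This held for 49 of the 54, each but the last 5 of the proximal run, against 6.6% of all genes and 22.5% of the 806 scored genes of chromosome 13. Profile F was the highest in 37 of the 54, against 4.53% of all genes and 12.4% of those on chromosome 13. The raw level showed the same low profile: it was 2.09, 2.07, 2.07, 2.05, 2.02 and 2.08 over the proximal run and 2.08, 2.08, 2.08, 2.05, 2.03 and 2.11 over the distal run. In A the raw level was thus slightly higher over the proximal run, unlike the score. The members of a run share smoothed values, so these counts describe 2 places and not 54.

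For 14 of the members no window that was valued in each profile overlaps the gene. A stretch of 59.4 kb in the proximal run (21788320 to 21847685) carried no value in any profile, and H2bc23, H2ac23, H4c17, H4c18, H2ac24 and H4bc24 lie wholly in it. In the distal run, H1f3, H3c6, H2ac8, H2bc8, H2bc7, H2ac7, H3c4 and H4c4 lie in 32.1 kb (23551991 to 23584125) that was not valued in A and only in part in B and C. These 14 genes took the score of a window 7.47 to 29.0 kb from their midpoint. The other 53 took one at most 11.5 kb away.

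Between the runs the score reached its lowest values, below 0 in each profile, while its mean over the interval was -0.01 in E and 0.05 to 0.18 in the others. The interval of 1487 kb held 41 other protein-coding genes, 36 of them Vmn1r genes for vomeronasal receptors, and 13 of the 41 lay under 0 throughout the profiles while 15 lay over 0 throughout. The lowest windows scored -0.45, -0.54, -0.40, -0.63, -0.73 and -0.49 in profiles A to F. In B, D, E and F this was the window next to Vmn1r212, 841 kb after the proximal run, and in A and C it lay near Vmn1r207 and Vmn1r206. A gap of 95.6 kb without values follows Vmn1r212, across which the score rose by 0.40 to 0.69.

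The outer flanks of the cluster had mean scores above 0 in each profile. The flank before the proximal run was higher than the member median of that run in A to E and lower in F. The flank after the distal run was lower than the member median of the distal run in each profile. Over 500 kb before the proximal run the mean score was 0.86, 0.78, 0.84, 0.81, 0.57 and 0.72, and over 500 kb after the distal run 0.65, 0.61, 0.56, 0.62, 0.35 and 0.69. E was the lowest profile in both. The nearest peak to the proximal run lay 286 to 356 kb before it in 5 profiles and inside it in F, at scores of 0.63 to 0.92. Inside the distal run a peak was found in B and C, and the others had their nearest peak 855 to 925 kb after it.

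The histone classes did not separate by timing. Over all loci the median score was 0.74 for H1, 0.73 for H2A, 0.70 for H2B, 0.74 for H3 and 0.73 for H4 genes. On chromosome 13 alone it was 0.74 for the 6 H1, 0.68 for the 13 H2A, 0.68 for the 15 H2B, 0.74 for the 9 H3 and 0.73 for the 11 H4 genes. Each class has members in several loci, and members of different classes share windows.

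Genes that act on histone transcription or mRNA were spread over a wider range of timing than the histone genes. These genes lie on many chromosomes, whereas the members share 29 windows at 5 loci, so the 2 ranges are not of like sets. The list held factors of histone transcription and of 3′ end processing, and 16 of its 18 genes had a score. Cpsf2 and Cpsf3, subunits of the cleavage complex, lie on chromosome 12, which had no window valued in each profile. Of the 16, 15 scored above 0 in each profile and 7 above 1, against 76.2% and 27.6% of all genes, with a list median of 1.08 (0.97 to 1.11). The earliest was Cramp1l at 1.81 and the latest Srrt, which links the cap-binding complex to RNA processing, at 0.10 (-0.09 to 0.33).

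Npat itself scored 0.88 (0.55 to 0.93), Slbp, which binds the stem-loop of histone mRNA, 1.18 (0.99 to 1.23), and Pou2f1, the octamer factor, 1.06 (1.01 to 1.30). Replication-independent histone variants were earlier than most members. All 11 had a score, 10 lay above 0 in each profile and 7 above 1, against the same 76.2% and 27.6% of all genes, with a list median of 1.31 (1.25 to 1.38). H2ax, the variant that is phosphorylated at DNA breaks, was the earliest at 1.63, and H2az1 the latest at 0.33. Against this, the members had a median of 0.74 (0.47 to 0.78), and the variant genes lie singly and not in clusters. Npat, Slbp and Pou2f1 were named after their values were seen.

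**Figure D5:**
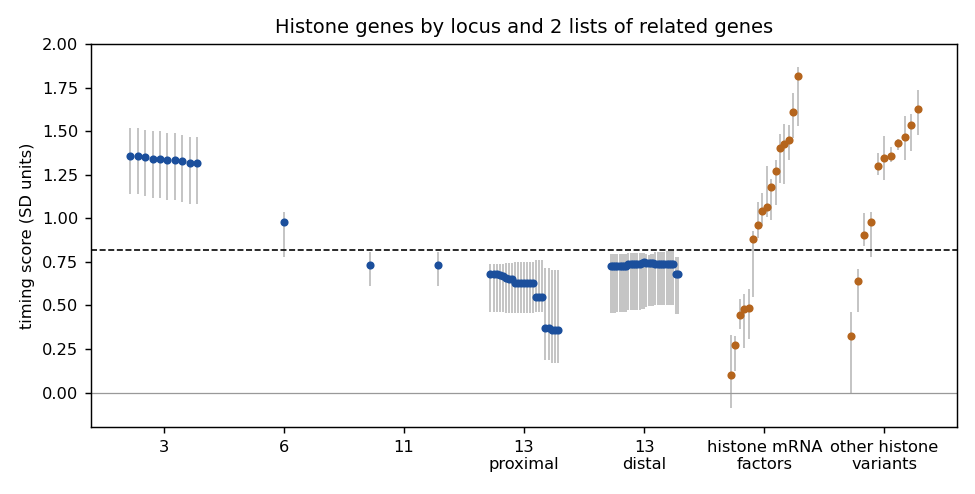
Median timing score (SD units, vertical axis) over the 6 profiles for each histone gene by locus (blue points), for the histone mRNA factors and for the replication-independent histone variants (brown points), with grey bars from the lowest to the highest profile and a dashed line at the median of all genes. The runs of chromosome 13 lie below the dashed line at 0.82, and 7 genes of each list lie above 1 in each profile.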

How the data were processed

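Replication timing was measured by whole-genome sequencing in 6 samples, 3 WT and 3 Recql4-/- Klhdc3-/-, from paired 150-bp reads aimed at 30-fold depth, per the labels' protocols. The submitters' processing notes name the build mm10 and Picard 2.23.9, and TIGER is named in the series title. Not given in the sources used here were aligner, counting, GC correction and smoothing. The authors deposited 2 tables without headers over 237602 windows of at least 10000 bp: a normalised copy level, here the raw level, and a smoothed timing score. Each deposited score column is scaled to mean 0 and SD 1 on the autosomes, so a large shift in one chromosome of a profile enters the scale of its other scores. The depth behind a window is unknown, so no counting interval is given. The value columns carry no sample names, so no genotype comparison and no test was run, and values are given per profile or as median and range. All columns were used.

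Gene positions and promoter sequences came from RefSeq tables of GRCm38.p6. Each gene was given the score at the window closest to its midpoint, up to 50 kb away, among windows valued in each profile in both tables. Peaks were maxima along the score that stood out by 0.25 or more (prominence). The genes named were the earliest and latest of each locus and list, those beside the largest step in a locus, members of loci of 5 or fewer, the 3 earliest and 3 latest of the family, and other genes at the lowest window; further genes are named as examples. Members and lists were chosen with earlier results of these data known. A planned comparison of protein sequences was not made. Alternatives were other scalings, gene positions, window averages and limits, and each profile left out in turn. Python 3.11.15, pandas 2.3.3, NumPy 2.4.6, SciPy 1.17.1 and matplotlib 3.10.9 were used, and the placement of genes in windows was tested on simulated data.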

Additional observations from a re-analysis of the deposited data

How the results depend on the processing

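No paired analysis was possible because the value columns carry no replicate number. The medians of all members, of the members on chromosomes 3, 11 and 13 and of the named genes kept their sign under the alternatives run. Other gene positions, the mean score within 50 kb and 1 value per distinct window kept the member medians within 1 SD over the profiles. Rescaling over the 12 chromosomes without large shifts did so too. The 7 chromosomes left out of that scale include 3 and 6, which hold members, and their own shifts are not removed by it. On raw levels scaled to SD units within 50 kb of each gene the median was 0.52 for all members (0.74 on the score), 0.43 on chromosome 13 (0.73) and 0.80 on chromosome 3 (1.34), 54 members in place of 67 exceeded 0 in each profile, and 0 in place of 10 exceeded 1. The cause was not tested, and the shares of all genes on these scaled levels were not counted. On the same levels the chromosome 11 median was 0.74 (0.73 on the score), H4f16 0.99 (0.98) and H4bc24 0.96 (0.55). With 1 profile left out, the number of members with a range of at least 0.5 was 0 (without C or without F) to 5. It was 65 at a limit of 0.25, 4 on raw levels within 50 kb, and 0 on raw levels within 200 kb without the 4 windows. The latter alternative and the raw level without these windows (2.08 in place of 2.04) were chosen after the data were seen. Of 72 values of the 18 named genes under alternatives that kept all profiles, 62 stayed within 1 SD over the profiles and 10 moved further. All 10 were on raw levels, where 10 of the 18 genes moved. The other alternatives reread the same smoothed scores. With a profile left out, 148 of 150 values did not move by more than the limit set for them, and the other 2 are the counts of 0 just given. Most of the 150 are medians over the profiles, which a left-out profile moves only to a neighbouring middle value. Their small moves were therefore largely set in advance. Peak distances depended on the prominence: at 0.5 they were 1603 kb for the proximal run and 1072 kb for chromosome 11, and at 0.1 each profile had a peak inside the distal run (0 kb). What depth limits could not be seen apart from the scatter of raw levels between windows, an SD of 0.09 to 0.12 over the proximal run.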

Other observations

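The 6 profiles carry no group, and at the last 5 genes of the proximal run A, B and C had the lowest scores, with E between them and D. At H2ac11 the scores of A, B and C were 0.28, 0.25 and 0.17, against 0.60, 0.44 and 0.71 in the other profiles. Each of A, B and C lay below each of D, E and F in 5 of the 67 members, a share near the 7.37% of all genes. At the other 62 members the profiles did not divide in this way. In the window from 22105784 to 22124428 of chromosome 13, inside the stretch of low raw level after these genes, the levels were 1.26, 1.27 and 1.24 in A, B and C and 1.96, 1.84 and 2.07 in D, E and F. No protein-coding gene of the annotation overlaps that window. In the distal run the windows of H2ac8 and H2bc8 were valued in D, E and F and not in A, B or C.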
